A study of Mus musculus with 8 samples.

Results

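The probes described here are those whose name on a mouse expression array is a stretch of an autosome with a strand letter, F or R, in place of a transcript accession. Every probe of that form that was not a control spot was taken, which gave 15604 of the 55681 probes, and 15600 of the 55667 with an unflagged spot on every array could be used (28.0%). They carry 4429 names in 3387 intervals: 1042 intervals are probed on both strands, 1189 on F only and 1156 on R only. Intervals run from 62 to 7128487 bases with a median of 7451, and merging those that overlap leaves 2123 separate loci. The array annotation uses mouse genome build mm9 and gives these probes no gene name, so their working label of intergenic lincRNA, and any gene that lies near an interval, was not checked against an annotation. The F or R of a name was read as the strand of the transcript, which the array files do not state.

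Long intergenic non-coding RNAs (lincRNAs) are transcripts that are mostly spliced, carry no long open reading frame and arise between protein-coding genes. As a class they are known for low levels and for narrow expression in few cell types. In pluripotent cells several are bound at their promoters by the core pluripotency factors and act with chromatin-modifying proteins. An array designed over such intervals places several probes along the interval, often on both strands because the direction of transcription was not known for all of them.

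A total of 8 one-colour arrays were hybridised with Cy3-labelled total RNA from undifferentiated C57BL/6J cells: 1 from the embryonic stem cell (ESC) line B6J-23, 4 from OSKH and 3 from OSK induced pluripotent stem cells (iPSCs), the last being the control group. OSK is taken as Oct4, Sox2 and Klf4, and H as H1foo, an oocyte linker histone. The labels do not spell the letters out, and name neither the cells that were reprogrammed nor the way the factors were delivered. Nor do they tell if the arrays within a group come from different lines or cultures, and the tests can thus only set a difference against array-to-array spread, part or all of which may be technical. A level below is the log2 signal relative to the 75th percentile of signals on the same array, which has the value 0, and a probe is called detected on an array where the scanner software marked it well above background. The brightness of a probe also depends on its sequence, so levels are compared between arrays for the same probe, and between sets of probes only as distributions.

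The arrays shared a slide with 2 rows. Row 1 held ESC and the arrays OSKH 1, 2 and 3, while row 2 held OSKH 4 beside every OSK array. All 10 markers of undifferentiated cells on a fixed list, Pou5f1, Nanog and Esrrb among them, were detected on every array, with a mean level between 4.51 and 5.25. OSKH 4 stood apart in markers of endoderm and mesoderm. The mean level of 5 endoderm markers was 0.67 there, against -4.69 to -4.43 on the other OSKH arrays, -5.23 to -4.54 on the OSK arrays and -3.09 on ESC. That of 5 mesoderm markers was 1.06 on OSKH 4 and -2.76 to -1.65 elsewhere, and that of 8 fibroblast markers was 0.50 on OSKH 4, 0.38 on ESC and -2.94 to -1.83 on the other arrays. Sox17, Mixl1 and Mesp1 were detected on OSKH 4 alone. On all arrays, 0 of 5 endoderm, 3 of 5 mesoderm, 4 of 8 fibroblast and 3 of 4 neural markers were detected. The mean level of the 4 neural markers was -1.50 on OSKH 4, within the -1.91 to -0.08 of the other arrays. In RNA from bulk cells, a change in the share of a cell type cannot be told apart from a change in RNA per cell, and the part of other cell types in the results on OSKH 4 and ESC was not tested.

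Coordinate-named probes were detected far less often than probes for RefSeq mRNAs, whose names start with NM_. On ESC 37.0% of the 15600 probes were detected. The share was 38.5% on OSKH 1, 38.5% on OSKH 2, 44.5% on OSKH 3 and 33.6% on OSKH 4, and 35.1% on OSK 1, 34.5% on OSK 2 and 40.0% on OSK 3. On the same arrays 65.7% to 72.0% of 26635 NM_ probes were detected, a gap of 27.5 to 33.0 percentage points that had the same direction on 8 of 8 arrays. OSKH arrays averaged 38.8% ± 4.44 (SD, n = 4) and OSK arrays 36.5% ± 3.02 (SD, n = 3), and the groups overlapped.

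The differences in detection between arrays went with the detection limit of each array. The lowest level that still counted as detected was -4.80 on OSKH 3, the array with the highest share, and -4.05 on OSKH 4, the array with the lowest share. When 1 level, -4.05, was applied to all arrays, between 36.1% and 38.1% of coordinate-named probes lay above it, and the gap to NM_ probes was 29.6 to 31.5 points. OSKH arrays then averaged 36.6% ± 0.346 (SD, n = 4) and OSK arrays 37.3% ± 0.834 (SD, n = 3), so that the sign of the small difference between the groups, 2.23 points on the first measure, turned to -0.73 points. This common level was chosen after the detection limits were seen.

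**Figure D1:**
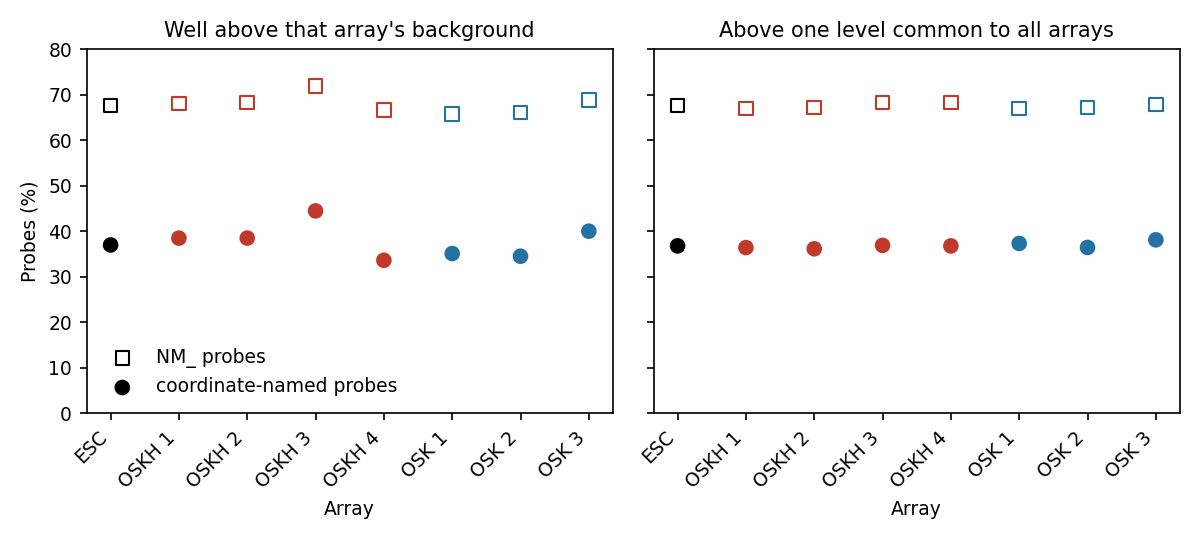
Share of coordinate-named probes (filled circles) and NM_ probes (open squares) on each array, in percent, for ESC (black), OSKH (red) and OSK (blue). On the left, probes well above the background of their own array, where OSKH 3 is highest at 44.5%; on the right, probes above the level of -4.05 on every array, where coordinate-named probes lie between 36.1% and 38.1%.

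Detection of the same coordinate-named probe also varied more from array to array. Of the 15600 probes, 49.0% were detected on no array, 29.3% (4565 probes) on all 8 and 21.7% on 1 to 7. For NM_ probes the shares were 24.6%, 62.7% and 12.7%. Among probes detected at least once, 42.6% of the coordinate-named and 16.9% of the NM_ probes were missed on some array. OSKH 3, with its low detection limit, was the only array to detect 491 coordinate-named probes, while the other arrays were alone in detecting 63 (ESC) to 157 (OSK 3).

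**Figure D2:**
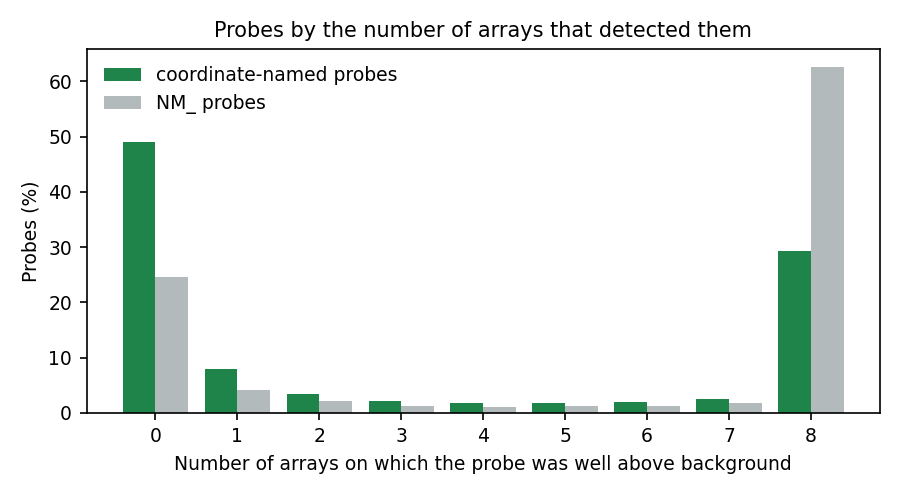
Percent of coordinate-named (green) and NM_ (grey) probes by the number of the 8 arrays on which they were well above background. Coordinate-named probes pile up at 0 arrays (49.0%), NM_ probes at 8 (62.7%), and the classes between hold more of the coordinate-named probes.

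Where they were detected, the probes were mostly dim. The 4565 probes detected on all 8 arrays had a median level of -1.73 (quartiles -2.68 and -0.26), against 0.93 for the 16695 such NM_ probes. Only 21.8% of the former lay above the 75th percentile of their array, and 61.7% of the latter. A small number were nonetheless among the bright probes of the array, and 68 exceeded a level of 5.

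The 8 brightest coordinate-named probes varied over the arrays by 0.23 to 0.60 log2 units. The R probe of chr11:22681800-22707775 (A_30_P01026458) had a level of 8.91 on ESC, 8.77, 8.69, 8.83 and 8.79 on OSKH 1 to 4, and 8.77, 8.79 and 8.82 on OSK 1 to 3. Its OSKH minus OSK difference was -0.02 ± 0.08 (SE), and the iPSC groups overlapped. The F probe of chr17:48068261-48087905 ranged from 8.67 to 8.93 over the 8 arrays. All 3 F probes of chr6:116123643-116124550 were among the 8 brightest, with means of 8.14, 8.36 and 8.50. The other 3 of the 8 lay in chr14:78924115-78938125 F, chr7:108209996-108216032 R and chr17:39982023-39983277 F, with means of 8.25, 8.19 and 7.96. The widest ranges were those of A_30_P01030669 on chromosome 7, from 7.79 on OSKH 2 to 8.39 on OSK 3, and A_30_P01020015 on chromosome 17, from 7.63 to 8.18.

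Detection differed to some extent between chromosomes, strands and lengths of interval. The share of probes detected on all arrays ran from 24.5% on chromosome 9 to 35.1% on chromosome 19, with a median of 29.1% over the 19 autosomes. It was 27.2% for F and 31.3% for R probes. Probes in intervals of up to 1000 bases were detected on all arrays less often, at 22.9%, than the whole set.

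Within an interval the probes often disagreed on whether there was signal. Of 3257 names with at least 3 probes, 340 (10.4%) had every probe detected on every array and 644 (19.8%) had none detected on any array. In 1400 names (43.0%) at least 1 probe was detected on all 8 arrays and at least 1 other on none or only some of them. Means given below for an interval are over its probes detected on all arrays, with their number beside them. Means of strand pairs are instead over every probe of the strand, detected or not.

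Of the 1042 intervals probed on both strands, 404 (38.8%) had a probe detected on all arrays on both strands and 424 (40.7%) on 1 strand only, 191 on F and 233 on R. The remaining 214 had no such probe on either strand. Averaged over the probes of each strand, the same strand was the brighter on all 8 arrays in 807 pairs (77.4%). Among the 828 pairs with at least 1 probe detected on all arrays it was 713 (86.1%). Different probes stand behind the strands, and a difference in probe brightness can keep the order constant on every array. The counts were thus not read as a difference in transcription between strands, and the size of the difference was not compared between intervals.

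The 6 pairs with the widest distance between strands are described by their levels alone, since picking a wide distance between different probes fixes their order on every array. In chr11:35805295-35817263 the F probe had levels of 5.42 on ESC, 5.00 to 5.29 on OSKH and 4.98 to 5.11 on OSK arrays, and the R probe was not detected on any array. In chr4:136856064-136877219, which has 5 probes on each strand, the mean over all R probes ran from 4.54 to 4.69. That over all F probes ran from -3.86 to -3.35, but only 3 of the 5 F probes were detected on any array. The rest enter this mean with values at background. The third pair, chr11:22681800-22707775, holds the brightest probe, on R, while its 2 F probes averaged between -0.15 and 0.21. The other 3 of the 6 were chr4:141527564-141547339 and chr18:23922600-23937275, brighter on F, and chr14:49314574-49358174, brighter on R.

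The spread between replicate arrays differed with level. Over the probes detected on all arrays, the median SD within the iPSC groups was 0.221 for coordinate-named and 0.172 for NM_ probes, and the former was 0.188 without OSKH 1. At matched level the order was not constant. Between levels of -3 and -2 it was 0.251 against 0.284, between 0 and 1 it was 0.174 against 0.173, and above 1 it was 0.152 against 0.125. OSKH arrays had the larger spread, with a median SD of 0.225 against 0.164 in OSK arrays for coordinate-named probes. The same order held for NM_ probes (0.185 against 0.118). The OSKH arrays (n = 4) lay in slide rows 1 and 2, and the OSK arrays (n = 3) in row 2 only. Without OSKH 4, the median SD within the iPSC groups was 0.212 for coordinate-named probes. The part of slide row, group size and OSKH 4 in the larger OSKH spread was not tested.

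OSKH and OSK cells were compared to see whether adding H changed the coordinate-named transcripts. No probe among the 6196 detected on at least 3 arrays, and hence tested, passed an adjusted p of 0.05 in limma, where the same count over all 30834 probes tested was 0 (0%). No adjusted p was below 0.575. With unadjusted p-values and the same threshold of 0.05, 128 coordinate-named probes were higher in OSKH and 337 lower, which is 2.07% and 5.44% of those tested, beside 3.06% and 3.46% of all probes tested. In both directions together there were 465, a share of 7.50%, beside 6.52% of all probes. That count was 273 without OSK 2, 798 without OSKH 1 and 727 with arrays 1 to 3 paired by number.

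Most coordinate-named probes were slightly lower in OSKH than in OSK cells. The median difference over the 6196 probes was -0.068 and 63.5% of them were below 0. For 18426 NM_ probes the median was -0.005 with 51.3% below 0, and for all probes -0.018 with 54.7%. The median of the coordinate-named probes was between -0.079 and -0.062 in each of 6 classes of level, while that of NM_ probes lay between -0.015 and 0.016, so the shift was present in dim and bright probes. Without OSKH 4 it was -0.063, beside 0.004 for NM_ probes. With slide row as a term, which compares OSKH 4 alone with the OSK arrays, it was -0.072 beside -0.045 for NM_ probes, with 59.1% and 57.6% of probes lower.

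By array, the groups did not overlap in the median deviation from the mean, but overlapped in other measures of the same probes. The median deviation of a coordinate-named probe from its own mean over the 8 arrays was -0.039 on OSKH 1, -0.028 on OSKH 2, -0.041 on OSKH 3 and -0.042 on OSKH 4, and 0.028 on OSK 1, 0.027 on OSK 2 and 0.054 on OSK 3. ESC lay between them at 0.013. For NM_ probes the deviations of the groups overlapped, from -0.049 to 0.014 on OSKH and from -0.017 to 0.025 on OSK arrays. The plain median level of the coordinate-named probes detected on all arrays was -1.68, -1.77, -1.80 and -1.79 on OSKH 1 to 4 and -1.66, -1.69 and -1.71 on OSK 1 to 3, so that OSKH 1 lay among the OSK arrays. The shares above the common level also overlapped, at 36.1% to 36.9% on OSKH and 36.4% to 38.1% on OSK arrays. No p is given for the shift because it is a property of the whole set.

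**Figure D3:**
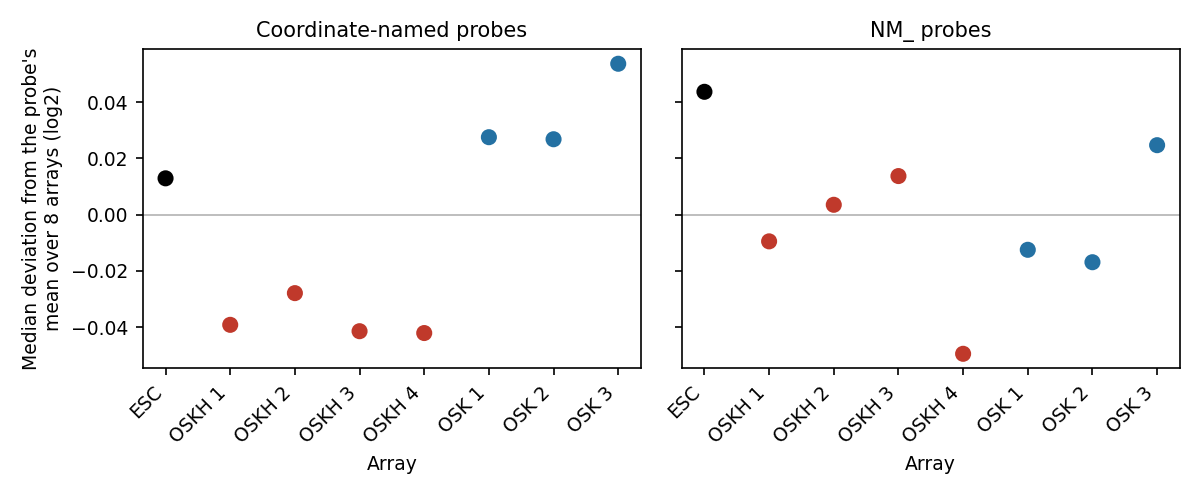
Median over probes detected on all arrays of the log2 deviation from the probe's own mean over the 8 arrays, for coordinate-named (left) and NM_ probes (right), with ESC in black, OSKH in red and OSK in blue. The OSKH arrays lie from -0.042 to -0.028 and the OSK arrays from 0.027 to 0.054 on the left, and they overlap on the right.

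Among the 4565 probes detected on all arrays, all 4 OSKH arrays were below all 3 OSK arrays in 255 (5.59%) and above them in 76 (1.66%). Over all 26405 probes detected on all arrays the shares were 4.44% and 2.94%, and for both directions together 7.37% beside 7.25% of the coordinate-named probes. Their count in both directions was therefore near the background, and the split between directions was the part that differed.

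The interval chr6:52046805-52072744, which spans 25940 bases, gave 6 of the 8 probes with the smallest p among those lower in OSKH. Its brightest probe, the F probe A_30_P01019947, had levels of 2.01, 2.23, 1.98 and 2.08 on OSKH 1 to 4, 2.74, 2.92 and 2.65 on OSK 1 to 3, and 2.25 on ESC. The OSKH arrays were all below the OSK arrays, and ESC lay between them. The difference was -0.69 ± 0.10 (SE), with an adjusted p of 0.575 in limma. The F probe A_30_P01020764 differed by -1.29 ± 0.20 (SE), with levels of -0.70, -0.47, -1.25 and -1.05 on OSKH arrays, 0.28, 0.64 and 0.34 on OSK arrays and -0.38 on ESC.

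The rest of that interval pointed the same way without a call. All 6 F probes were lower in OSKH, by -1.31 to -0.69, and in the 5 of them detected on all arrays the OSKH and OSK arrays did not overlap and ESC lay between the groups. On the R strand 4 of 9 probes could be tested, and all 4 were lower in OSKH, by -1.40 to -0.44, but the groups were apart in only 2 of the 3 detected on all arrays. A further 3 R probes were detected on no array. F and R probes thus differed in the same direction.

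**Figure D4:**
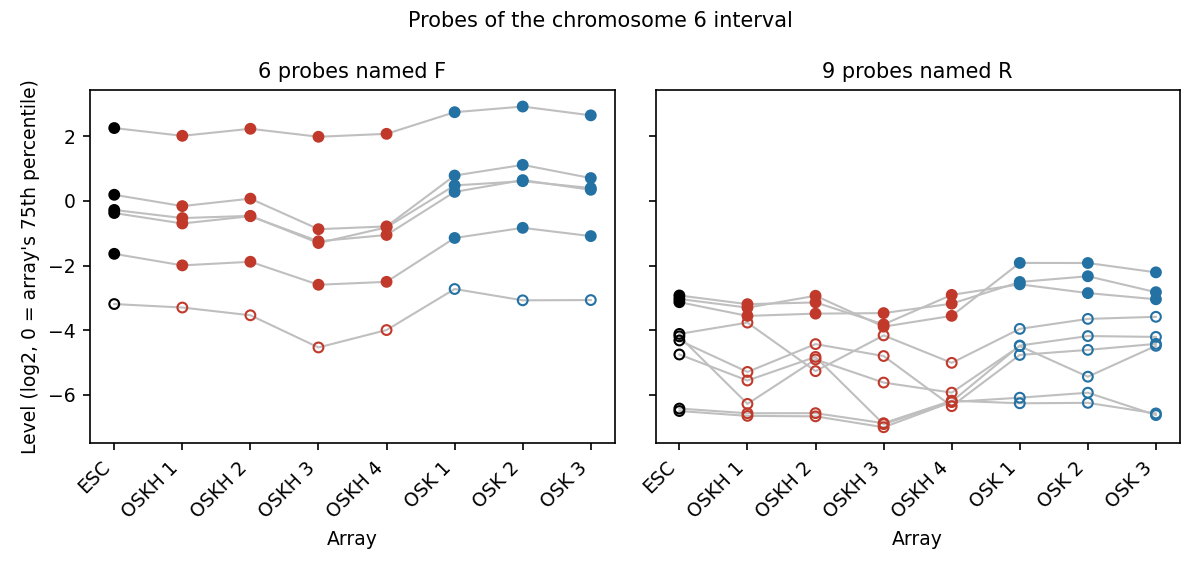
Level (log2, 0 is the 75th percentile of the array) of the 6 F probes (left) and 9 R probes (right) of the chromosome 6 interval on each array, with ESC in black, OSKH in red and OSK in blue. Lines join the values of a probe, and filled points mark probes detected on all 8 arrays; each such F probe is lower on all OSKH than on all OSK arrays, the brightest by 0.69 on the log2 scale.

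Such agreement along an interval was found in few others. Of 647 names with at least 3 probes detected on all arrays, 10 had at least 3 probes with the OSKH arrays all below the OSK arrays, and 0 had at least 3 with them all above (1.55% and 0%). Of 390 NM_ names the same counts were 0 below and 3 above (0% and 0.769%), and of 1086 names of any kind 10 and 3 (0.921% and 0.276%). The coordinate-named probes as a whole also lay lower in OSKH, and the split between directions was not tested apart from that. In 4 of the 10 every such probe was below: chr6:52046805-52072744 F, chr14:52874069-52877398 R, chr15:79764481-79809909 R and chr8:74439200-74441363 F. These names were picked for the pattern, so their values are a description. Averaged over the 3 of its 7 R probes detected on all arrays, chr15:79764481-79809909 R had -0.92, -1.33, -1.44 and -1.29 on OSKH 1 to 4 and -0.71, -0.63 and -0.66 on OSK 1 to 3, a mean difference of -0.58. The mean differences of the other 2 were -0.41 for the chromosome 14 and -0.32 for the chromosome 8 interval.

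In a second interval with a small p, chr8:12535648-12544923 R, OSKH 1 did not follow the other OSKH arrays in every probe. The probe A_30_P01019118 had -3.03, -3.47, -3.18 and -3.44 on OSKH and -2.39, -2.43 and -2.53 on OSK arrays, a difference of -0.83 ± 0.13 (SE) with an adjusted p of 0.575 in limma. All 4 tested R probes were lower in OSKH, by -1.23 to -0.70, but OSKH 1 lay within the range of the OSK arrays in the other 3. None of the 5 F probes of the interval was detected on any array. The last of the 8 probes, in chr15:59130091-59131239 R, differed by -0.46 ± 0.08 (SE).

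The probes with the smallest p among those higher in OSKH were mostly at the detection limit. Of these 8, only 2 were detected on all arrays. The F probe A_30_P01022211 of chr7:112934153-112943178 had 2.33, 2.47, 2.75 and 2.51 on OSKH 1 to 4, 2.05, 1.82 and 2.00 on OSK 1 to 3 and 2.55 on ESC, a difference of 0.56 ± 0.12 (SE) with an adjusted p of 0.745 in limma. The OSKH and ESC arrays were all above the OSK arrays. Its neighbours did not share this: the 2 other F probes detected on all arrays differed by -0.08 and -0.04. The R probe A_30_P01029977 of chr5:96591892-96606467 differed by 0.33 ± 0.07 (SE), and 3 F probes of that interval, at levels of 4.06 to 5.73, by 0.19 to 0.23.

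Detection on every array of 1 iPSC group only depends on the detection limits. The lowest detected level was -4.46, -4.47, -4.80 and -4.05 on OSKH 1 to 4, and -4.08, -4.11 and -4.43 on OSK 1 to 3. The part of these limits in the counts that follow was not tested. No probe of any kind was detected on all OSK and no OSKH arrays. On all OSKH and no OSK arrays 9 coordinate-named probes were detected, which is 0.058% of them beside 0.128% of NM_ probes and 0.0898% of all probes. For the 8 of these with the largest difference the fold was at least 1.22 to 1.49, since the OSK arrays give only a bound. The first of them, in chr1:69531191-69570566 R, had -3.33, -3.45, -3.93 and -3.53 on OSKH and -4.95, -4.21 and -4.22 on OSK arrays, and was at least 1.49-fold higher. The largest fitted difference among the probes higher in OSKH, 1.84 ± 0.30 (SE) for the F probe of chr4:3745750-3756200, came to at least 1.43-fold by the same bound. Both other F probes of that interval were detected on no array.

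ESC and iPSC cells were compared with 1 ESC array, so the tests assume that ESC arrays would vary like iPSC arrays. In limma 0 of 6196 coordinate-named probes passed in either comparison, beside 0.00324% of all probes for OSKH minus ESC and 0% for OSK minus ESC. At an unadjusted p of 0.05 OSKH minus ESC gave 278 probes (4.49%, beside 4.27% of all probes), 133 higher in OSKH and 145 lower (2.15% and 2.34%, beside 1.79% and 2.48%). OSK minus ESC gave 401 (6.47%, beside 5.96%), 240 higher in OSK and 161 lower (3.87% and 2.60%, beside 2.83% and 3.13%). Without OSKH 1 the count of 278 became 457. The median difference over the coordinate-named probes was -0.052 for OSKH minus ESC, close to the -0.049 of NM_ probes, and 0.021 for OSK minus ESC, where that of NM_ probes was -0.051. Both comparisons share the ESC array.

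ESC lay above all 7 iPSC arrays in 597 of the 4565 probes detected on all arrays (13.1%, beside 19.2% of all such probes) and below all of them in 438 (9.59%, beside 7.91%). The distance exceeded 1 log2 unit in 3 probes above (0.0657%, beside 0.0227%) and 1 below (0.0219%, beside 0.0303%). Along intervals, 24 of the 647 names had ESC above in at least 3 probes and 28 had it below (3.71% and 4.33%). Of the 390 NM_ names it was 37 and 3 (9.49% and 0.769%), and of the 1086 names of any kind 65 and 33 (5.99% and 3.04%). In 11 of the 24 and 14 of the 28 this held for every probe detected on all arrays. These too were picked for the pattern.

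The interval chr5:35975265-35982561 had the largest mean distance of ESC above the iPSC arrays, 1.30. The mean of its 4 F probes was 2.13 on ESC, 0.39, 0.85, 0.98 and 1.17 on OSKH 1 to 4, and -0.03, 0.67 and 1.81 on OSK 1 to 3. ESC was above all iPSC arrays in 4 of 4 F probes, and OSK 1 and OSK 3 lay at opposite ends of the iPSC arrays. The brightest R probe ran the other way, with 4.67 on ESC, 5.58 on OSKH 1, 5.88 on OSK 1 and 4.85 on OSK 3. The R name was not among those with ESC below in at least 3 probes. OSKH and OSK did not separate on either strand, with differences of -0.21 to 0.31 over the 8 probes.

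Other names with ESC above carried more probes and smaller distances. In chr5:74487385-74497428 F it was 10 of 10 probes, with a mean of 3.46 on ESC, 2.54, 3.03, 3.12 and 3.01 on OSKH 1 to 4 and 3.06, 2.96 and 3.15 on OSK 1 to 3. OSKH 1 was the lowest array there. In chr17:38132217-38157667 F it was 8 of 8 probes, with 0.52 on ESC and -0.12 to 0.39 on the iPSC arrays. Below the iPSC arrays, chr7:99879368-99889978 F had ESC lowest in each of the 5 of its 10 probes that were detected on all arrays, at a mean of -1.78 against -1.39 to -0.97. In chr1:135956616-135957485 R it was lowest in 3 of 3, at -2.62 against -2.01 to -1.35, and the first of its probes differed by 1.23 ± 0.21 (SE) in OSK minus ESC with an adjusted p of 0.609 in limma.

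The probe with the smallest adjusted p for OSK minus ESC had a wider distance to ESC than the other probes of its interval. The F probe A_30_P01019140 of chr12:81719382-81731865 had -2.24 on ESC, -3.48, -3.22, -3.58 and -3.41 on OSKH and -3.78, -3.83 and -3.73 on OSK arrays. It differed by -1.54 ± 0.16 (SE), with an adjusted p of 0.174 in limma. ESC was above all iPSC arrays in 3 of the 5 F probes, the other 2 of them with far smaller steps: the brightest had 0.34 on ESC and 0.07 to 0.30 on the iPSC arrays, and A_30_P01018646 had -2.36 and -2.57 to -2.41. A_30_P01030905 in chr15:85300937-85301522 F was at -0.64 on ESC and -4.00 to -2.81 on the iPSC arrays. Its 2 neighbours on the same strand did not have ESC highest, at -3.68 and -2.75.

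In the opposite direction, A_30_P01027466 in chr4:35106125-35127700 R had -3.20 on ESC and -1.30 to -0.07 on the iPSC arrays. The 3 other R probes of that interval were detected on no array. Of the 8 probes with ESC lowest by the smallest p, 6 were not detected on ESC, and for the F probe of chr17:56791549-56803877 the fold was at least 2.13 for OSK and at least 1.90 for OSKH over ESC.

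Of the 6 probes with the largest SD over the iPSC arrays, 3 were highest on both arrays numbered 3 and 1 on both numbered 1, while the 2 in chr2:94082835-94101939 R did not follow array number. Arrays of the same number in both groups also share a slide column. The R probe A_30_P01018039 of chr16:8738782-8830148 had 5.54 on OSKH 3 and 5.52 on OSK 3, and 2.92 to 3.40 on the other iPSC arrays and 3.54 on ESC. A_30_P01027463 in chr5:34696192-34722842 R had 5.04 and 5.06 on the arrays numbered 3 and 2.47 to 2.75 on the others. A_30_P01029584 in chr6:90915489-90940052 R had 1.50 and 1.59, against -1.10 to -0.64.

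In the chromosome 16 and chromosome 6 intervals the pattern was not shared by the other R probes described here. The other R probes of the chromosome 5 interval are not described. The 9 other R probes of the chromosome 16 interval did not have both arrays numbered 3 above the rest by such a step, and the brightest of them ranged only from 2.19 to 2.49. The brightest other R probe of the chromosome 6 interval had 4.27 on OSKH 3 and 4.46 on OSK 3, against 4.02 to 4.56 on the other arrays. Why single probes agree between the arrays numbered 3 was not tested.

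Other variable intervals moved as a whole. All 3 F probes of chr10:69844350-69844784 were highest on OSKH 1 and second highest on OSK 1. The probe A_30_P01031257 had 1.98 on OSKH 1, -0.99 on OSKH 2, -1.06 on OSKH 3, -0.55 on OSKH 4, 0.57 on OSK 1, -0.05 on OSK 2, -0.86 on OSK 3 and 0.06 on ESC. In chr2:94082835-94101939 R all 5 probes were lowest on OSKH 1. The probe A_30_P01020369 had -3.44 there, -0.48 on OSKH 2, -0.47 on OSKH 3, -2.16 on OSKH 4, -1.15, -0.33 and 0.27 on OSK 1 to 3, and -1.78 on ESC. Its OSKH minus OSK difference was -1.24 and that of the other of the 6 in this interval, A_30_P01017702, was -1.07, each with an adjusted p of 0.846 in limma.

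Both arrays numbered 1 were over 0.5 above the 5 other iPSC arrays in 49 of the 4565 probes detected on all arrays (1.07%, beside 0.492% of all such probes), and over 0.5 below them in 9 (0.197%, beside 0.598%). For the arrays numbered 2 the counts were 2 and 3 (beside 0.0568% and 0.0909%), and for those numbered 3 they were 8 and 2 (beside 0.0568% and 0.0492%).

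**Figure D5:**
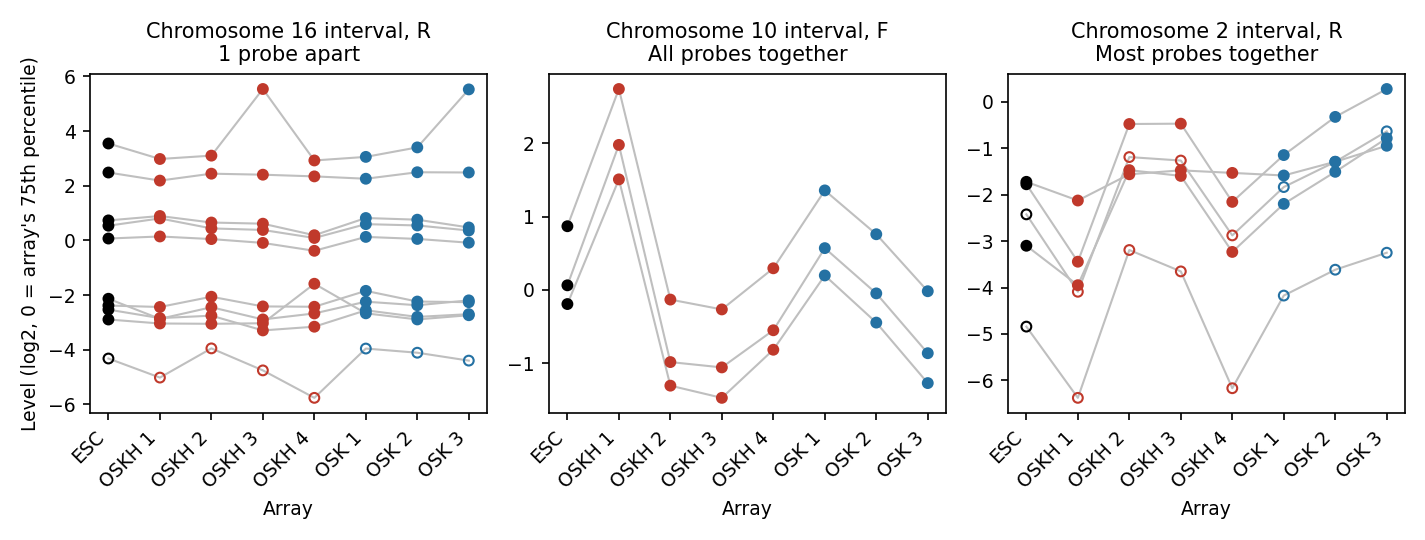
Level (log2, 0 is the 75th percentile of the array) on each array of all probes of 1 strand of 3 intervals that vary among iPSC arrays, with ESC in black, OSKH in red and OSK in blue, and filled points for probes detected on all 8 arrays. On chromosome 16 a single R probe reaches 5.54 on OSKH 3 and 5.52 on OSK 3, on chromosome 10 all 3 F probes are highest on OSKH 1, and on chromosome 2 all 5 R probes are lowest on OSKH 1.

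The correlation between probes of a name over the arrays was higher in names picked for a large SD. Over the 1111 names with at least 2 probes detected on all arrays, the median correlation between probes over the 8 arrays was 0.62, beside 0.69 for 2916 NM_ names. In the 79 names whose SD over the iPSC arrays exceeded 0.5 it was 0.96, and in the 566 with an SD of up to 0.2 it was 0.35, beside 0.98 (122 names) and 0.55 for NM_ names. A large SD of the mean of a name favours probes that move together. These correlations describe the probes of these arrays, which share each array's RNA and scaling.

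A few coordinate-named probes had a level on OSKH 4, the array with the endoderm and mesoderm markers, far from that on the other arrays. It is the only OSKH array in slide row 2, so a fit with slide row as a term sets this 1 array against the 3 OSK arrays and not the groups against each other. In that fit 4 coordinate-named probes passed in limma for OSKH minus OSK, 3 higher and 1 lower (0.0646% together, beside 0.152% of all probes, of which 0.126% were higher and 0.0259% lower). For OSK minus ESC the same fit links the groups only through OSKH 4, so its calls are no comparison of OSK with ESC: it called 7, 4 higher and 3 lower (0.113%, beside 0.143% of all probes, 0.0357% higher and 0.107% lower). The F probe A_30_P01027195 of chr8:126278269-126291621 had 0.12 on OSKH 4 and -4.52 to -3.68 on the 7 other arrays. A_30_P01032244 in chr17:33425193-33449090 F had 0.49 on OSKH 4 and -2.39 to -2.14 elsewhere, and A_30_P01026132 in chr4:139270621-139271059 R had -1.63 and -4.47 to -3.58. Without slide row their differences were 0.62, 0.60 and 0.00, with adjusted p-values of 0.956, 0.929 and 1.00 in limma, and without OSKH 4 they were -0.50, -0.10 and -0.68. For the first and second of them OSK minus ESC was 0.30 and 0.19 without slide row and -4.18 and -2.59 with it.

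In the chromosome 8 and chromosome 17 intervals a neighbour on the same strand was detected on all arrays, and it did not share the step on OSKH 4. In the chromosome 4 interval the 2 other R probes were detected on no array, so they cannot show whether the signal was shared. The other R probe of the chromosome 1 interval is not described. In the chromosome 8 interval the F probe detected on all arrays had -1.64 on OSKH 4 and -2.20 to -1.59 elsewhere. In the chromosome 17 interval it had 3.13 on OSKH 4, the lowest of the 8 arrays, and 3.31 to 3.57 elsewhere. The lower probe, A_30_P01031789 in chr1:196445304-196445818 R, had -5.40 on OSKH 4 and -4.00 to -3.28 elsewhere.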

How the data were processed

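RNA from 8 samples was measured on Agilent one-colour arrays, grouped by the sample titles. Per the file headers, spots were quantified by Agilent Feature Extraction, and per the submitters' processing notes its version was 11.5.1.1. The deposited intensity is a processed signal, background-subtracted by the software and not scaled between arrays. In the deposited value table each column was the log2 of this signal shifted by a constant (every matched probe to within 0.01), which settles its scale and direction and shows no centring per probe. Its column medians ran from -3.71 to -3.60. Its software: not given in the sources used here.

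From the intensity, control spots and spots with an outlier flag were left out, spots of a probe averaged, and the log2 signal taken minus the 75th percentile over probes. No spot was saturated. The 75th percentile of the signal was 424 to 501, and the number of arrays limits the precision. Probes well above background on at least 3 arrays were tested with limma's lmFit and eBayes (version 3.58.1, R 4.3.3) over all 8 arrays, with 5 residual degrees of freedom and Benjamini-Hochberg adjustment over all 30834. The fit was also tested on simulated data, built from the probe means and the fitted spread. "At least" folds use, for a group with no detected array, the higher of its own signal and each array's lowest detected signal.

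The members and lists were chosen with earlier results of these data known. Named probes were the 8 brightest, the 8 with the smallest p in each direction of each comparison, the 6 with the largest SD over iPSC arrays, those detected on every array of 1 iPSC group only, and the 6 widest strand pairs. Intervals picked for agreement between probes, and probes called with slide row as a term, were chosen after their values were seen. Array numbers 1 to 3 in the titles were used to pair the iPSC groups in 1 alternative fit. Same-numbered arrays deviated together from their group means (r = 0.47, 0.20 and 0.36 over probes), against -0.39 to 0.07 for arrays of different number. They also share a slide column per the file headers, so a pairing of samples cannot be told apart from the slide column. For normexp the median signal was used, as the mean signal was not analysed here. Marker genes were named through RefSeq accessions of assembly GRCm38.p6, which matched 27650 of the 55667 probes. The 576 probes named by chrX intervals and 13 without a strand letter were left out.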

Additional observations from a re-analysis of the deposited data

Results flagged for a closer look

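In the group of 4 OSKH arrays, 69 values were checked for an array far from the other 3, measured as the gap to the nearest array divided by the range of the group. Chance sets apart about 1 in 20 groups, and 11 of the 69 were set apart; many of the probes had been named for their spread or for OSKH 4, which favours such values. OSKH 3 was apart in the median level of all coordinate-named probes, detected or not (-4.88, against -5.06 to -5.03, ratio 0.854). OSKH 4 was apart in the number of probes that it alone failed to detect (159, against 5 to 27, ratio 0.857). The bright R probe A_30_P01030669 of chr7:108209996-108216032 was lower on OSKH 2 (7.79, against 8.23 to 8.30, ratio 0.861). OSK 2 was also the lowest of its group there, at 7.87.

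OSKH 3 was apart for A_30_P01018039 on chromosome 16 (ratio 0.932) and A_30_P01027463 on chromosome 5 (0.928), and OSKH 1 for A_30_P01031257 on chromosome 10 (0.833). In each of them the OSK array of the same number was also the highest of its group.

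OSKH 4 was apart for 5 probes: A_30_P01026132 on chromosome 4 (0.915), A_30_P01027195 on chromosome 8 (0.906), A_30_P01032244 on chromosome 17 (0.954), A_30_P01027375 on chromosome 2 (0.841) and A_30_P01031789 on chromosome 1 (0.931). The first 3 were higher there and the last 2 lower.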

How the results depend on the processing

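The count of coordinate-named probes called for OSKH minus OSK was 0 under every alternative run but one: with slide row as a term, which sets OSKH 4 alone against OSK, it was 4. For OSK minus ESC it was 7 with slide row as a term and 1 with no filter on dim probes, and for OSKH minus ESC it was 2 with no filter. It was 0 otherwise, and 0 to 0 in each comparison when any OSKH or OSK array was left out. At an unadjusted p of 0.05 the count for OSKH minus OSK, 465 in all, ran from 273 without OSK 2 to 798 without OSKH 1, and was 725 with no filter; for OSKH minus ESC, 278 in all, it was 717 with no filter, and for OSK minus ESC, 401 in all, it was 785 with no filter and 629 with slide row as a term. The replicate block, arrays 1 to 3 of each group paired by number, called 0 and had 727 at an unadjusted p of 0.05; it changed no call.

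With arrays left out, the difference in detection between OSKH and OSK ran from 0.329 to 3.97 points, the difference in median level over all coordinate-named probes (-0.012) from -0.081 to 0.068, the strand pairs with a constant order from 812 to 823, and the median SD from 0.188 to 0.228. Counting only pairs with both strands detected on all arrays gave 333 of 404 pairs. The median SD was 0.142 after normexp. The median difference of the tested probes lay between -0.113 (no filter) and -0.041 (normexp), with 58.5% (without OSK 3) to 67.4% (well above background on all 8 arrays) of probes lower. Of 961 differences of named probes under 16 alternatives, 935 kept their sign and side of the threshold. A further 7 became calls with the same sign, all with slide row as a term, and 19 changed sign (adjusted p from 0.013 to 1.00 in limma over all 961). All of these changes concern probes that the fit with slide row called, and the 4 sign changes in that fit were calls as well. For OSKH minus OSK that fit gave 2.03 for A_30_P01026132 (0.00 without it), and for OSK minus ESC -2.24 for A_30_P01026132, -4.18 for A_30_P01027195 and -2.59 for A_30_P01032244 (0.47, 0.30 and 0.19 without it), where OSK and ESC are linked only through OSKH 4. A_30_P01026132 also had 0.073 after normexp and 0.011 after quantile normalization. With the replicate block, which leaves out OSKH 4, OSKH minus OSK changed sign to -0.50 for A_30_P01027195, 0.092 for A_30_P01027375, 0.088 for A_30_P01032111 and -0.10 for A_30_P01032244. With arrays left out it ran from -0.68 to 0.27 for A_30_P01026132, -0.50 to 1.05 for A_30_P01027195, -0.59 to 0.092 for A_30_P01027375, -0.36 to 0.088 for A_30_P01032111 and -0.10 to 0.86 for A_30_P01032244. Dim probes limit the rest, since 49.0% of the set was detected on no array.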
